A study of Mus musculus with 8 samples.

Results

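The genes described here stand for the nuclear encoded subunits of the 5 oxidative phosphorylation complexes. They were selected by symbol: Cyc1, and names that begin with Ndufa, Ndufb, Ndufc, Ndufs, Ndufv, Uqcr, Cox4 to Cox8 or Atp5, or that are Sdha to Sdhd, without assembly factors of the Ndufaf series and without pseudogene names. Of 55421 identifiers in the count table, 91 matched, and 78 of them reached 100 counts summed over the 8 libraries. Complex I contributed 36 of these genes, complex II 4, complex III 9, complex IV 12 and complex V 17. Ndufa4, named after complex I, was counted with complex IV, to which its protein is now assigned. The symbols also brought in the supercomplex factor Cox7a2l, counted with complex IV, and the coupling factor Atp5s, counted with complex V.

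RNA came from splenic germinal centre B cells of C57BL/6 mice aged 8 to 10 weeks, taken 10 days after immunization and isolated with a PNA bead kit. The 4 groups, with 2 libraries each, were Smarca4+/- CC, Smarca4+/+ CC, Smarca4+/- CB and Smarca4+/+ CB, where CB and CC are read as centroblasts and centrocytes. Smarca4+/- mice keep 1 intact copy of Smarca4, whose protein is the ATP-driven motor of SWI/SNF remodellers of chromatin. The labels give neither the construction of the allele nor any Cre driver, and they do not say whether replicates were separate mice, so each p-value reflects only how far libraries lie apart, and that distance may be technical. Smarca4 itself was at 244 and 311 CPM (counts divided by the library's scaled total) in Smarca4+/- CC against 322 and 316 CPM in Smarca4+/+ CC. In the other fraction it was at 734 and 702 CPM in Smarca4+/- CB, against 897 and 1002 CPM in Smarca4+/+ CB. Its genotype difference did not pass in either fraction (edgeR's quasi-likelihood test with Benjamini-Hochberg adjustment, adjusted p = 0.607 in CC and 1 in CB).

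Oxidative phosphorylation couples the flow of electrons from nutrients to oxygen with the synthesis of ATP at the inner mitochondrial membrane. Complex I (NADH dehydrogenase) and complex II (succinate dehydrogenase) feed electrons through ubiquinone to complex III (cytochrome bc1), cytochrome c carries them on to complex IV (cytochrome c oxidase), and complex V (ATP synthase) uses the proton gradient that builds up. Complexes I, III, IV and V also hold subunits made from the mitochondrial genome, while every subunit of complex II is nuclear. In germinal centres, B cells divide in the dark zone as centroblasts and are selected in the light zone as centrocytes.

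Depth differed widely between the fractions, from 526353 to 837558 total counts in the CC libraries and from 18357578 to 24341805 in the CB libraries. The median count of the 78 genes was 12 to 18 in the CC libraries and 464 to 572 in the CB libraries, and 14 to 31 of the genes had fewer than 10 counts in a CC library. Replicates differed by a median of 0.65 (log2) in Smarca4+/- CC, 0.82 in Smarca4+/+ CC, 0.19 in Smarca4+/- CB and 0.15 in Smarca4+/+ CB over the 78 genes, so single genes were measured far less precisely in CC. Among nonzero counts under 200, 75.6% to 87.0% were even numbers in the CC libraries and 68.4% to 75.1% in the CB libraries, so counting intervals and floors, which assume single steps, are too narrow here and cover counting error only. All 78 genes passed the filter on low counts, which kept 12997 genes. All 10 germinal centre B cell markers checked were detected in every library. The 6 centroblast markers summed to 2452 and 3824 CPM in Smarca4+/- CC and 1903 and 1911 CPM in Smarca4+/+ CC, against 6164 to 7118 CPM in CB, and the 6 centrocyte markers to 772 to 1058 CPM in CC, against 277 to 343 CPM in CB.

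Levels per length in CB spanned more than 2 orders of magnitude across the family. On the scale of CPM per kilobase of the table's gene length, the median of the 78 genes over the 4 CB libraries was 17.8. The highest was Atp5a1, the alpha subunit of the catalytic head of ATP synthase, with a mean of 193 (range 179 to 213), followed by its catalytic partner Atp5b with 153 (range 137 to 176). Both encode subunits that are present in 3 copies in each enzyme. Ranks of genes and complexes on this scale depend on the gene length used, which ran from 419 bases for Ndufa1 to 8086 bases for Ndufs1.

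Complex IV genes came next, led by Cox8a with 122 CPM per kilobase in CB. Cox6b1 had 81.4, Cox6a1 77.8, the supercomplex factor Cox7a2l 75.5 and Cox4i1 72.4, while the lowest gene of the complex, Cox7c, had 6.99. Complex II ranged from 50.8 for Sdha, the flavoprotein that oxidizes succinate, through 33.6 for the iron-sulfur subunit Sdhb and 26.7 for the membrane anchor Sdhd to 8.31 for the other anchor, Sdhc. Complex III ranged from 39.5 for the hinge protein gene Uqcrh to 8.00 for Uqcrq, with the Rieske iron-sulfur protein gene Uqcrfs1 at 32.6, the core gene Uqcrc2 at 28.4, cytochrome c1 (Cyc1) at 28.0 and the core gene Uqcrc1 at 25.2.

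Complex I had the lowest median of the 5, 12.8 CPM per kilobase in CB. It was led by the iron-sulfur subunit Ndufs8 with 41.5. Ndufv1, which carries the NADH site, had 21.9, Ndufa9 19.7, Ndufv2 15.6, Ndufs1 9.63 and Ndufb8 6.72. The accessory gene Ndufb4 was lowest of all, with 1.03 CPM per kilobase.

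**Figure D1:**
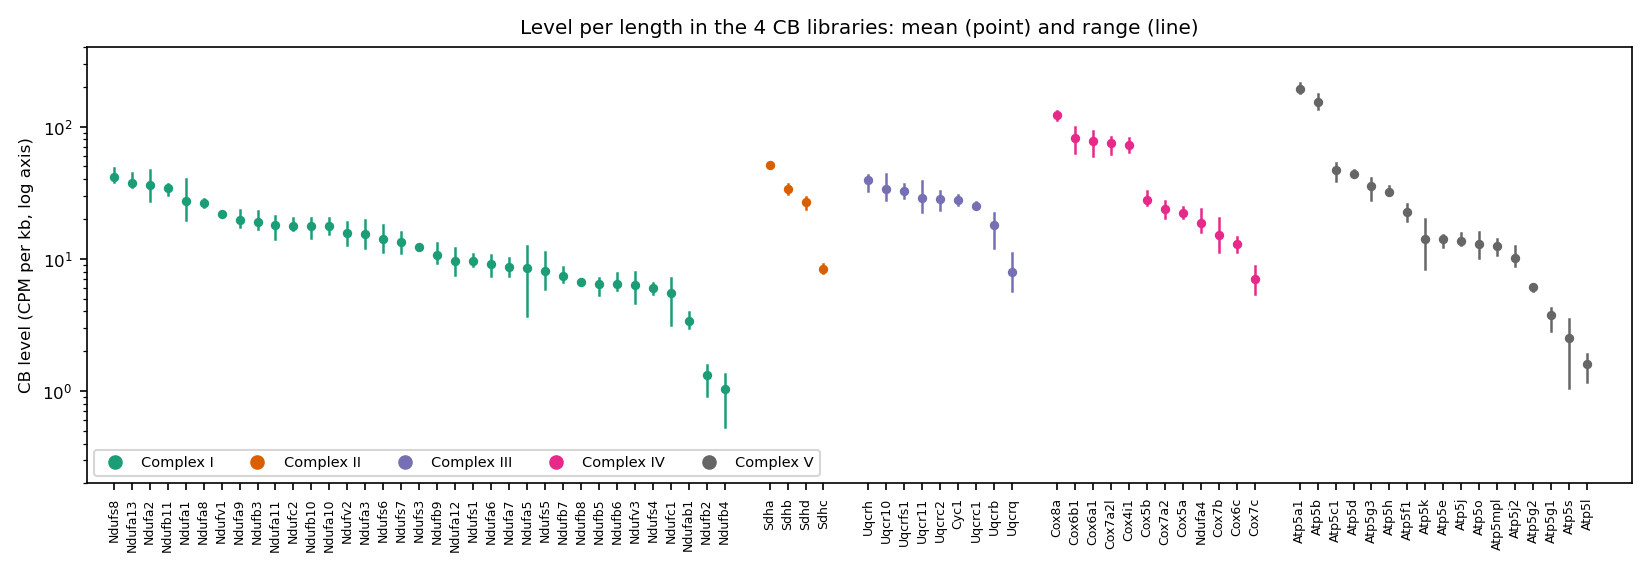
Level of 77 of the 78 genes in the 4 CB libraries, in CPM per kilobase of gene length on a log axis, grouped by complex and ordered by mean; points are means and lines run from the lowest to the highest library. Atp5a1 and Atp5b (153 to 193) and Cox8a (122) stand at the top and Ndufb4 (1.03) at the bottom.

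Subunit c of ATP synthase, which forms the rotor ring, is encoded by 3 genes for the same mature protein. Atp5g3 supplied 70.7% to 80.7% of their summed CPM per kilobase in every one of the 8 libraries. In CB, Atp5g2 stood at 6.09 and Atp5g1 at 3.75 CPM per kilobase, against 35.6 for Atp5g3. The order of Atp5g1 and Atp5g2 turned without the division by length (4912 and 1675 bases). As shares of the summed counts in the CB libraries, Atp5g1 held 13.7% to 22.7%, Atp5g2 9.03% to 10.8% and Atp5g3 66.5% to 76.8%.

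The other symbol matches, isoforms known from other tissues among them, stayed below the count minimum. Cox6a2, Cox7b2, Cox8b, Cox8c, Cox6c2, Ndufb4c, Ndufs6b and a second identifier named Atp5o had 0 counts in all 8 libraries. Ndufa11b had 4 counts in all, the hypoxia-linked Ndufa4l2 5, the lung isoform Cox4i2 10 and the muscle isoform Cox7a1 22, of which 10 were in 1 Smarca4+/+ CC library. Cox6b2, a testis isoform, was the nearest below the minimum with 68 counts, and its only reads were in CB, where the Smarca4+/- libraries held 12 and 20 counts and the Smarca4+/+ libraries 22 and 14. Ndufb4, just above the minimum with 161 counts, had 0 in all CC libraries, 35 and 51 in Smarca4+/- CB and 20 and 55 in Smarca4+/+ CB. The CC libraries were far shallower than CB, so 0 counts there do not show that genes this low in CB were absent from CC.

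The first comparison was between fractions in Smarca4+/- cells. The summed level of the 78 genes was 2892 and 3218 CPM in Smarca4+/- CC, against 4515 and 4351 CPM in Smarca4+/- CB, a ratio of means of 0.69. The ratio lay between 0.66 and 0.70 for each of the 5 complexes, and both CC sums were below both CB sums in each. The median log2 fold change of CC over CB was -0.55 for the 78 genes and -0.08 for all genes tested. With 2 genes that were at 0 in Smarca4+/- CC (Ndufb2 and Ndufb4) set to their bound, the median was -0.53. The fitted value was negative for 67 genes and positive for 11. Both CC libraries were below both CB libraries for 48 of the 78 genes, beside 33.2% of all genes tested, and above them for 3, beside 20.2%.

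No single gene passed at an adjusted p of 0.05 in edgeR's quasi-likelihood test with Benjamini-Hochberg adjustment (0 of 78, beside 3.67% of all genes tested). At an unadjusted p under 0.05 there were 12 (beside 18.2%), all lower in CC. DESeq2 called 5, all lower in CC (Ndufa1, Uqcrfs1, Atp5a1, Sdhb and Uqcrc1, beside 11.4% of all genes), and limma-voom called 1, Ndufa1 (beside 3.01%). With no filter on low counts 4 genes were called (Ndufb2, Uqcrfs1, Atp5a1 and Ndufa1, beside 5.3%), with the replicate number within genotype as a block 1 (Atp5a1, beside 4.43%), without ribosomal RNA, mitochondrial and immunoglobulin genes 1 (Ndufa1, beside 3.77%), and with all counts halved 2 (Uqcrfs1 and Atp5a1, beside 8.15%).

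Atp5a1 had 243 and 432 CPM in Smarca4+/- CC, against 668 and 584 CPM in Smarca4+/- CB. The groups did not overlap, and the log2 fold change was -0.89 ± 0.24 (SE; edgeR adjusted p = 0.0733, n = 2 each). Without the second Smarca4+/- CC library it was -1.39 and was called, and without the first it was -0.56.

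Sdhb, the iron-sulfur subunit of complex II, had 40.1 and 43.9 CPM in Smarca4+/- CC, against 82.2 and 79.1 CPM in Smarca4+/- CB. Replicates lay close together in both groups, and the log2 fold change was -0.94 ± 0.29 (SE; edgeR adjusted p = 0.109). Uqcrfs1 had 10.7 and 19.0 CPM in Smarca4+/- CC, against 44.7 and 49.9 CPM in Smarca4+/- CB, a log2 fold change of -1.66 ± 0.43 (SE; edgeR adjusted p = 0.0590). Uqcrc1 had 72.1 and 61.7 CPM in Smarca4+/- CC, against 106 and 111 CPM in Smarca4+/- CB, a log2 fold change of -0.70 ± 0.24 (SE; edgeR adjusted p = 0.157). For these genes, too, every CC library lay below every CB library.

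Ndufa1, a small accessory subunit of complex I, rested on few reads. It had 0 and 1 counts in Smarca4+/- CC, against 228 and 352 counts (12.0 and 16.9 CPM) in Smarca4+/- CB. The ratio of pooled levels was 0.0431, with an exact 95% counting interval of 0.00109 to 0.241 (edgeR adjusted p = 0.0514). Ndufb2 had 0 counts in both Smarca4+/- CC libraries, against 266 counts in Smarca4+/- CB, and was at least 3.55-fold lower with the floor set at 3 counts over the group. Its exons overlap a neighbouring gene on the opposite strand, and Ndufb2, Ndufb11, Ndufs1, Cox6c and Atp5j are the 5 genes whose overlapping neighbours held more counts than they did, so that without the counting's strand setting, which is not given in the sources used here, their reads cannot be separated from those of the neighbours.

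**Figure D2:**
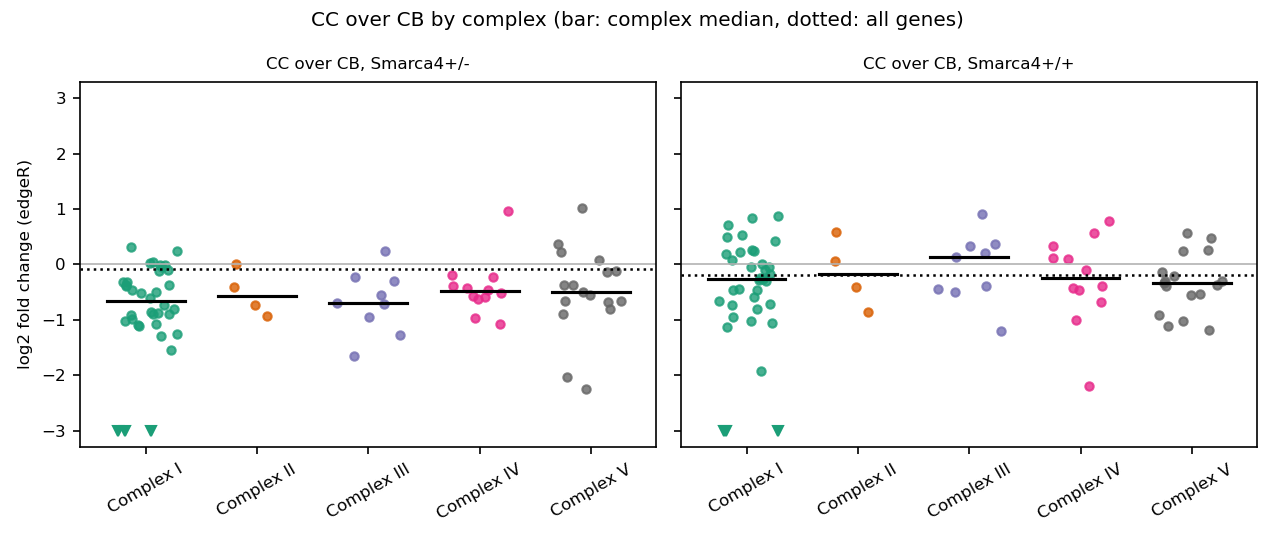
The log2 fold change of CC over CB for each gene, by complex, in Smarca4+/- (left) and Smarca4+/+ (right); bars are medians of a complex, dotted lines the median of all genes tested, and triangles mark genes beyond -3. In Smarca4+/- every complex median lies below the dotted line at -0.08, while in Smarca4+/+ the medians scatter around it.

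In Smarca4+/+ cells the difference between the fractions was smaller in size, and the test of that contrast is given with the interaction further on. The summed level was 3109 and 3698 CPM in Smarca4+/+ CC, against 3919 and 3785 CPM in Smarca4+/+ CB, a ratio of 0.88. The ratio was 0.94 for complex I, 0.95 for complex II, 1.00 for complex III, 0.80 for complex IV and 0.84 for complex V. These ratios turned with the scaling: as shares of raw counts they were 1.00 for the 78 genes, 1.07 for complex I, 1.08 for complex II, 1.13 for complex III, 0.91 for complex IV and 0.96 for complex V, while in Smarca4+/- the raw shares gave 0.75 for the 78 genes. The sums of complex III overlapped, with 329 and 405 CPM in Smarca4+/+ CC, against 374 and 361 CPM in Smarca4+/+ CB. The median log2 fold change was -0.30 for the 78 genes (-0.29 with Ndufb4, Ndufb6 and Ndufc1, at 0 in Smarca4+/+ CC, at their bound) and -0.19 for all genes. Both CC libraries were below both CB libraries for 23 genes, beside 38.5% of all genes, and above for 5, beside 18.2%. The second count was 12 with RLE scaling (beside 21.6%), 14 with total count scaling (beside 22.5%) and 11 of 66 with CB thinned to the CC depth (beside 25.4%). The first was 17 with total count scaling (beside 31.7%) and 12 of 66 when thinned (beside 25.7%).

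Here too edgeR's quasi-likelihood test called 0 of 78 at an adjusted p of 0.05, beside 7.49% of all genes. Unadjusted p-values under 0.05 were found for 6, beside 23.3%. DESeq2 called 5 (beside 16.7%), among them Ndufs1, Sdhb and Ndufa4, lower in CC, and Uqcr10, higher in CC. limma-voom called 0. With no filter on low counts 2 genes were called (Ndufc1 and Cox7a2l, beside 7.66%), and with the replicate number within genotype as a block 1 (Cox7a2l, beside 7.43%), each lower in CC.

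Ndufs1, the largest iron-sulfur subunit of complex I, had 39.3 and 32.7 CPM in Smarca4+/+ CC, against 75.8 and 71.0 CPM in Smarca4+/+ CB, a log2 fold change of -1.03 ± 0.30 (SE; edgeR adjusted p = 0.0646). Its exons overlap Eef1b2 on the opposite strand, so the doubt about strand given for Ndufb2 holds for it too. Ndufa4 had 2 and 4 counts (3.57 and 6.54 CPM) in Smarca4+/+ CC, against 24.9 and 22.1 CPM in Smarca4+/+ CB, a log2 fold change of -2.20 ± 0.69 (SE; edgeR adjusted p = 0.0802). Sdhb had 44.7 and 32.7 CPM in Smarca4+/+ CC, against 70.0 and 69.7 CPM in Smarca4+/+ CB, a log2 fold change of -0.86 ± 0.30 (SE; edgeR adjusted p = 0.115).

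Sdhb was 1 of 16 genes below CB without overlap in both genotypes, beside 17.1% of all genes tested, and 0 were above CB without overlap in both, beside 7.85%. The epsilon subunit gene Atp5e had 10.7 and 9.81 CPM in Smarca4+/+ CC, against 21.5 and 24.9 CPM in Smarca4+/+ CB (log2 fold change -1.18 ± 0.51, SE; edgeR adjusted p = 0.198). Ndufc1, an accessory subunit of complex I, had 0 counts in both Smarca4+/+ CC libraries, against 295 counts in Smarca4+/+ CB, and was at least 2.80-fold lower.

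The CC libraries also differed from CB in cell composition markers and depth. The summed level of 15 macrophage markers was 3965 and 1718 CPM in Smarca4+/- CC and 3449 and 3245 CPM in Smarca4+/+ CC, against 122 and 78.1 CPM in Smarca4+/- CB and 58.6 and 268 CPM in Smarca4+/+ CB. Of these markers 13 were higher in CC at an adjusted p of 0.05 in Smarca4+/- (beside 3.67% of all genes called) and 11 in Smarca4+/+ (beside 7.49%), and Fcgr1 was at 0 in both Smarca4+/- CC libraries, Marco in both Smarca4+/- CB libraries and Itgam in both Smarca4+/+ CB libraries. The 13 T cell markers summed to 353 and 203 CPM in Smarca4+/- CC and 702 and 721 CPM in Smarca4+/+ CC, against 111 to 139 CPM in CB, and the 9 erythroid markers to 462 and 128 CPM in Smarca4+/- CC and 636 and 778 CPM in Smarca4+/+ CC, against 5.43 to 12.8 CPM in CB. At 0 in both libraries of a group were the T cell markers Trbc1 in Smarca4+/- CB and Cd3e, Il7r and Themis in Smarca4+/+ CB, and, among the erythroid markers, Car1 and Klf1 in Smarca4+/+ CB. In bulk RNA, fewer cells of a type and less RNA per cell cannot be told apart, and the part of these cells and of depth in the values of the 78 genes was not tested, apart from 1 check of depth. With CB libraries thinned to the mean CC depth, 66 of the 78 genes were tested and their median log2 fold change was -0.33 in Smarca4+/- and -0.08 in Smarca4+/+, beside 0.03 and 0.04 for all genes.

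**Figure D3:**
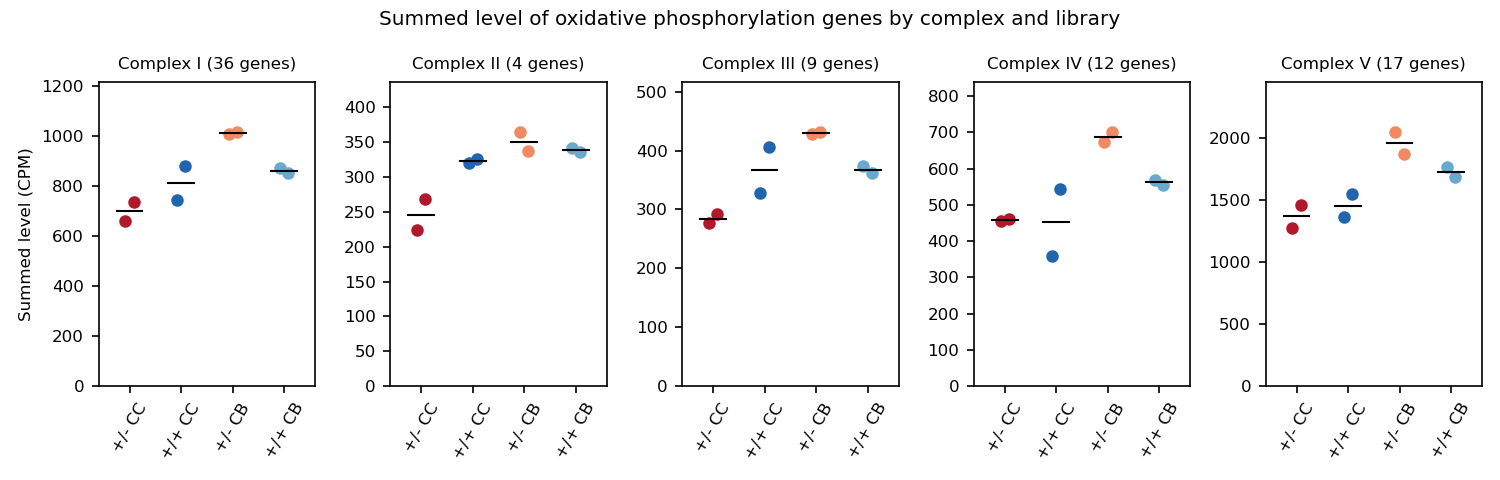
Summed CPM of the genes of each complex in every library (points) with group means (bars); axes start at 0. In each complex both Smarca4+/- CC libraries lie below both Smarca4+/- CB libraries, and in all but complex II both Smarca4+/- CB libraries lie above both Smarca4+/+ CB libraries.

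Between genotypes in CB, the deeply sequenced fraction, levels were higher in Smarca4+/- by a small amount across most of the family. The summed level was 4515 and 4351 CPM in Smarca4+/- CB, against 3919 and 3785 CPM in Smarca4+/+ CB, a ratio of 1.15. The ratio was 1.17 for complex I, 1.04 for complex II, 1.17 for complex III, 1.22 for complex IV and 1.13 for complex V. The fitted log2 fold change was positive for 72 of 78 genes, including all 9 of complex III and all 12 of complex IV, where 49.3% of all genes were positive. Its median was 0.23 for the 78 genes and -0.00 for all genes, and 0.25, 0.02, 0.26, 0.25 and 0.20 for complexes I to V. Both Smarca4+/- CB libraries were above both Smarca4+/+ CB libraries for 50 of 78 genes, beside 16.2% of all genes, and below them for 0, beside 15.8%.

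No single gene passed. edgeR's quasi-likelihood test called 0 of 78 at an adjusted p of 0.05, and 0 also at an unadjusted p under 0.05 (beside 0 and 0.646% of all genes). DESeq2 called 0 of 78 (beside 0.0231% of all genes), limma-voom 0, and an edgeR fit on the CB libraries alone 0. At an unadjusted p under 0.05 limma-voom had 11 of 78 (beside 4.35% of all genes) and the fit on the CB libraries alone 13 (beside 4.24%). With CB thinned to the CC depth, 23 of 66 genes were above without overlap, beside 16.8% of all genes.

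Cox6a1, a nuclear subunit of complex IV, had 65.6 and 65.3 CPM in Smarca4+/- CB, against 42.3 and 45.3 CPM in Smarca4+/+ CB, a log2 fold change of 0.58 ± 0.29 (SE; edgeR adjusted p = 1). Cox6b1, which lies where the complex IV monomers meet in the dimer, had 70.5 and 62.2 CPM in Smarca4+/- CB, against 44.7 and 53.0 CPM in Smarca4+/+ CB, a log2 fold change of 0.44 ± 0.28 (SE; edgeR adjusted p = 1). The replicates of both genes were closer to each other than to the other genotype.

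The largest fitted difference was that of Ndufa5, an accessory subunit of complex I, with 12.8 and 12.9 CPM in Smarca4+/- CB, against 5.38 and 3.83 CPM in Smarca4+/+ CB, a log2 fold change of 1.48 ± 0.79 (SE; edgeR adjusted p = 1). Uqcrq, of complex III, had 15.8 and 20.3 CPM in Smarca4+/- CB, against 12.1 and 10.4 CPM in Smarca4+/+ CB, a log2 fold change of 0.69 ± 0.47 (SE; edgeR adjusted p = 1). Complex II, with only 4 genes, had the lowest ratio and median of the 5 complexes. Its gene Sdha had 221 and 201 CPM in Smarca4+/- CB, against 212 and 204 CPM in Smarca4+/+ CB. Of the 4 genes 3 had a positive fold change, and 1, Sdhb, was above without overlap, beside 16.2% of all genes. Whether complex II differed from the other complexes was not tested.

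The difference was larger for short genes. The median log2 fold change in CB was 0.43 for the 17 genes with a length of up to 1000 bases, 0.26 for 30 genes of over 1000 to 2000 bases, 0.22 for 20 genes of over 2000 to 4000 bases and 0.12 for 11 longer genes. Over the other genes of the same lengths it was 0.03, 0.03, 0.01 and -0.02. The 78 genes had a median length of 1737 bases, against 4088 bases for all genes tested, and the part of length in the result was not tested further. The mitochondrial genome took 0.713% and 0.699% of counts in Smarca4+/- CB, against 1.40% and 1.16% in Smarca4+/+ CB. With ribosomal RNA, mitochondrial and immunoglobulin genes left out, the median of the 78 genes in CB was 0.24 and 50 were above without overlap, beside 16% of all genes.

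**Figure D4:**
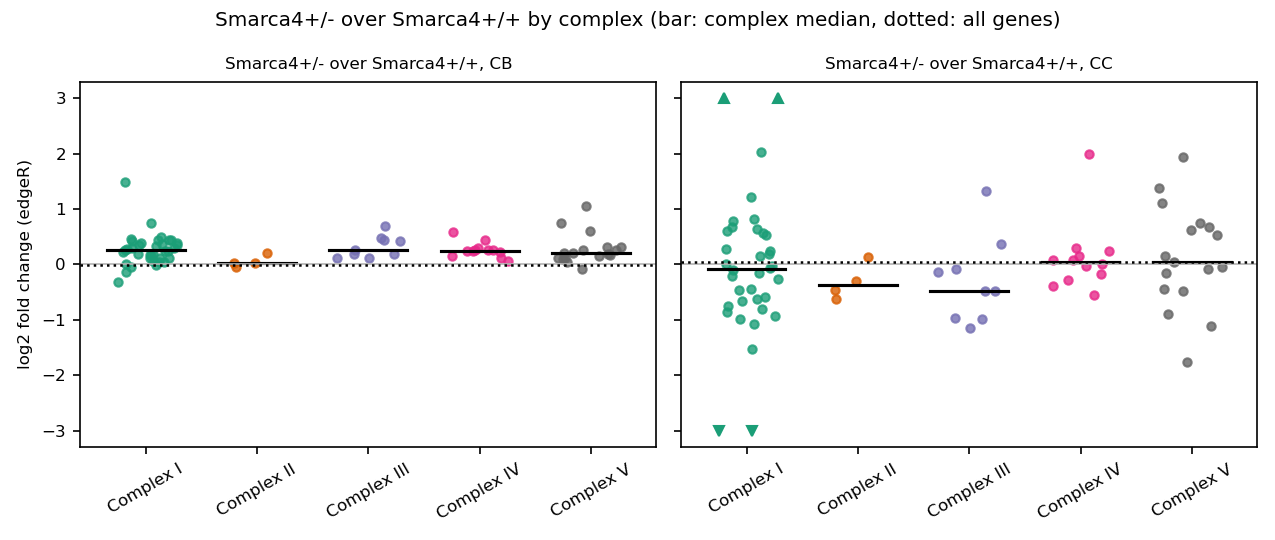
The log2 fold change of Smarca4+/- over Smarca4+/+ for each gene, by complex, in CB (left) and CC (right); bars are medians of a complex, dotted lines the median of all genes tested, and triangles mark genes beyond 3 in either direction. In CB 72 of 78 points lie above 0, and in CC 35 do, with a far wider scatter.

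Many nuclear genes of this family are known to carry sites for NRF1 and for ETS factors (NRF2/GABP) near their start. In RefSeq windows (GRCm38.p6) of 250 bases before to 50 after the start, 63 of the 78 genes had an entry. The NRF1 motif (GCGCN followed by TGCGC), on either strand, was found in 17 of them (27.0%), against 5.19% of 27025 genes. The ETS motif CCGGAAG, on either strand, was found in 16 (25.4%), against 9.93%. The 27025 were all genes with a window, whatever their counts here, while the 78 genes had to reach a count minimum. Shares over genes with like counts were not tested. NRF1 matches fell in 7 of 32 genes with a window in complex I, 2 of 3 in complex II, 1 of 5 in complex III, 1 of 10 in complex IV and 6 of 13 in complex V. A match is a description of the letters and not a binding site.

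The 4 genes with both motifs are shown because they span complexes II, IV and V and include Cox6a1 and Atp5h, which are among the genes named for their values. Each line gives the 250 bases before the start and the first 30 after it, on the minus strand of GRCm38.p6 and read 5′ to 3′ along the gene, with motif matches in capitals (GCGC at both ends for NRF1, and CTTCCGG, the reverse complement of the ETS motif). The motifs do not overlap each other in these windows.
Sdhd promoter, chr9:50603820-50604099: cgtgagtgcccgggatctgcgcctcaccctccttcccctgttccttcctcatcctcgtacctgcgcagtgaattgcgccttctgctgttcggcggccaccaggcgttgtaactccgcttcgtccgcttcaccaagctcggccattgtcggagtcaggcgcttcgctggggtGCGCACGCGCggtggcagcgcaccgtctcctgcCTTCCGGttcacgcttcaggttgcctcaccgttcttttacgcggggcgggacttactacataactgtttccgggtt
Cox6a1 promoter, chr5:115348929-115349208: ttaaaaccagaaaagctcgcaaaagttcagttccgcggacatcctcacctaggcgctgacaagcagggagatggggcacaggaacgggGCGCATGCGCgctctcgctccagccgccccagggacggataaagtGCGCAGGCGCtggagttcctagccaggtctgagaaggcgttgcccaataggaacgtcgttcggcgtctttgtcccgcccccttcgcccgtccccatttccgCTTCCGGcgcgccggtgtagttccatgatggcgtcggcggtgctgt
Atp5h promoter, chr11:115419890-115420169: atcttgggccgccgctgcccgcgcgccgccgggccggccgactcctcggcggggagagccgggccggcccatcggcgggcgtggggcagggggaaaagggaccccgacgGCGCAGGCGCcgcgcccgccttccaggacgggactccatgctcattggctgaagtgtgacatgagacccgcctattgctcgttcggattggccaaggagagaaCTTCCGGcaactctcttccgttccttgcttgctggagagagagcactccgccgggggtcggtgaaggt
Atp5k promoter, chr5:108434370-108434649: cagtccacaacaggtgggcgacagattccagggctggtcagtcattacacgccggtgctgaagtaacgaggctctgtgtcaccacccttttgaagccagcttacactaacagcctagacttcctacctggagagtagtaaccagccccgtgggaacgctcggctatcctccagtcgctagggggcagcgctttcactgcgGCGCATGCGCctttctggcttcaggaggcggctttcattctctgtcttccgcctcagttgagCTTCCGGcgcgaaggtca

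Of these 4 genes, Cox6a1, Atp5h and Atp5k were above without overlap in Smarca4+/- CB. The same held for 50 of all 78 genes, beside 16.2% of all genes tested, and a link between motifs and genotype was not tested. Atp5h cleared the other genotype narrowly, with 45.23 and 51.68 CPM in Smarca4+/- CB, against 44.45 and 45.18 CPM in Smarca4+/+ CB. Atp5k, the e subunit of ATP synthase, had 12.3 and 11.3 CPM in Smarca4+/- CB, against 5.18 and 6.21 CPM in Smarca4+/+ CB. Sdhd had 34.6 and 31.6 CPM in Smarca4+/- CB, against 29.2 and 36.0 CPM in Smarca4+/+ CB, and its groups overlapped.

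Between genotypes in CC, values scattered around 0. The summed level was 2892 and 3218 CPM in Smarca4+/- CC, against 3109 and 3698 CPM in Smarca4+/+ CC, a ratio of 0.90, and the groups overlapped. The ratio was 0.86 for complex I, 0.76 for complex II, 0.77 for complex III, 1.01 for complex IV and 0.94 for complex V. Both sums were lower in Smarca4+/- CC without overlap for complexes I, II and III. The median log2 fold change was -0.07 for the 78 genes and 0.03 for all genes, with 35 genes positive and 43 negative. These counts include Ndufb4, which was at 0 in all CC libraries, so its sign carries no information. With Ndufb2, Ndufb6 and Ndufc1, each at 0 in a CC group, set to their bound, the median was again -0.07. Both Smarca4+/- CC libraries were above both Smarca4+/+ CC libraries for 10 genes, beside 18.1% of all genes, and below for 13, beside 14.4%.

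edgeR's quasi-likelihood test called 0 of 78 (beside 0.0231% of all genes), with 7 at an unadjusted p under 0.05 (beside 15.2%). DESeq2 called 2, Ndufs1 and Atp5h, both higher in Smarca4+/- CC (beside 6.51%), and limma-voom called 0. Ndufs1 had 72.1 and 94.8 CPM in Smarca4+/- CC, against 39.3 and 32.7 CPM in Smarca4+/+ CC, a log2 fold change of 1.22 ± 0.32 (SE; edgeR adjusted p = 0.154). Atp5h, the d subunit of the peripheral stalk of ATP synthase, had 81.5 and 43.9 CPM in Smarca4+/- CC, against 21.4 and 26.2 CPM in Smarca4+/+ CC, a log2 fold change of 1.39 ± 0.42 (SE; edgeR adjusted p = 0.186). The level of Atp5h in Smarca4+/- CC differed nearly 2-fold between replicates.

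Ndufa4 had 29.4 and 11.9 CPM in Smarca4+/- CC, against 3.57 and 6.54 CPM in Smarca4+/+ CC, a log2 fold change of 2.00 ± 0.74 (SE; edgeR adjusted p = 0.246). Ndufa13, an accessory subunit of complex I also known as GRIM-19, had 24.0 and 30.8 CPM in Smarca4+/- CC, against 39.3 and 118 CPM in Smarca4+/+ CC, a log2 fold change of -1.52 ± 0.49 (SE; edgeR adjusted p = 0.200). Its value rests on 1 library: the log2 fold change ranged from -2.11 to -0.52 when each library was left out in turn. Ndufa1 had 1 count in all in Smarca4+/- CC, against 8 and 4 counts in Smarca4+/+ CC, a ratio of pooled levels of 0.0613 with an exact 95% counting interval of 0.00143 to 0.414 (edgeR adjusted p = 0.195).

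**Figure D5:**
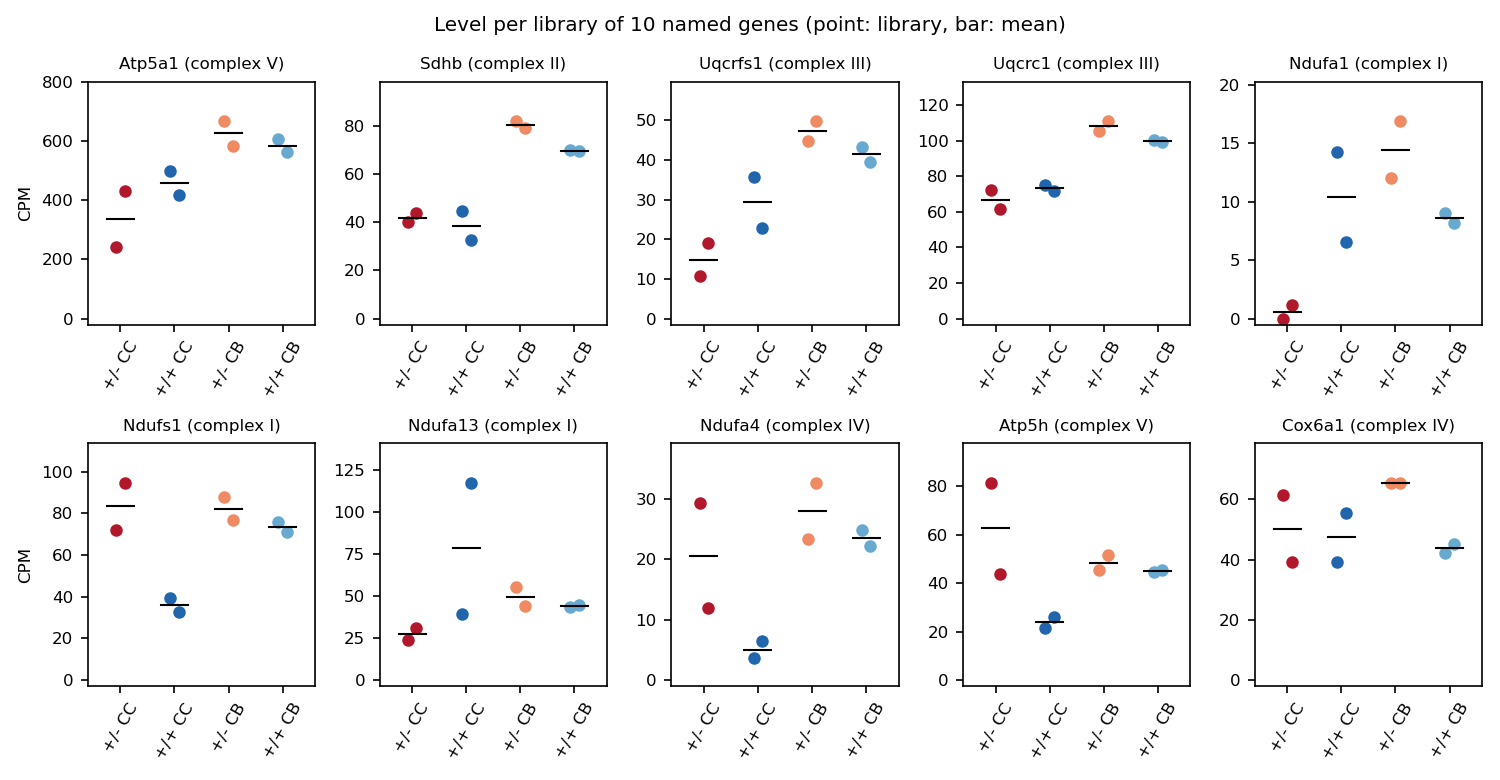
Level in CPM of 10 named genes in every library (points) with group means (bars), from Smarca4+/- CC on the left to Smarca4+/+ CB on the right. Sdhb is lower in CC in both genotypes, Ndufs1 and Atp5h are lower in both Smarca4+/+ CC libraries than in the other 6, and Ndufa13 is highest in 1 Smarca4+/+ CC library (118 CPM).

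The genotype by fraction interaction asks whether the CC to CB difference itself differed between genotypes. Its median was -0.36 (log2) for the 78 genes and 0.10 for all genes, with 55 genes negative and 23 positive. These counts again include Ndufb4, at 0 in all CC libraries, whose sign carries no information. The Smarca4+/- CB libraries enter the interaction with their higher levels, so it is built from the same libraries as the comparisons above and does not add to them. edgeR's quasi-likelihood test called 0 of 78 (beside 0 of all genes), with 5 at an unadjusted p under 0.05 (beside 9.19%). Both Smarca4+/- libraries were below both Smarca4+/+ libraries in CC and above them in CB for 7 genes, beside 2.32% of all genes. DESeq2 called 1 (beside 2.61%), and limma-voom 0.

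Cox5a, a subunit of complex IV, had 45.4 and 40.3 CPM in Smarca4+/- CC, against 52.0 and 46.4 CPM in Smarca4+/- CB, and 50.03 and 62.1 CPM in Smarca4+/+ CC, against 46.1 and 42.9 CPM in Smarca4+/+ CB. Its CC libraries were below CB in Smarca4+/- and above CB in Smarca4+/+, both without overlap, and it was singled out after its values were seen. The interaction was 1.05 ± 0.41 for Ndufs1, 1.27 ± 0.53 for Atp5h and -1.69 ± 0.63 for Ndufa13 (SE; edgeR adjusted p = 0.493, 0.517 and 0.466).

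The other genes of the pathway were followed by lists. Of 47 assembly factors tested, which build the complexes but are not part of them, 0 were called in Smarca4+/- CC against CB (beside 3.67% of all genes) and 2 were called lower in Smarca4+/+ CC against CB (beside 7.49%). These were Timmdc1, a complex I assembly factor, and Coa7, a complex IV assembly factor, each with 0 counts in both Smarca4+/+ CC libraries, against 453 and 406 counts (Timmdc1) and 302 and 334 counts (Coa7) in Smarca4+/+ CB. The median log2 fold change of the assembly factors was 0.10 in Smarca4+/- CC against CB, -0.43 in Smarca4+/+ CC against CB, 0.05 between genotypes in CB and 0.48 between genotypes in CC. All genes tested had medians of -0.08, -0.19, -0.00 and 0.03 in the same order. The 16 genes of cytochrome c and other electron feeders had medians of 0.24, -0.30, 0.04 and 0.37 in the same order, and the 19 citric acid cycle genes -0.18, -0.04, 0.11 and 0.03, with 0 called by edgeR in each. Between genotypes 0 genes of these lists were called in CB or CC, beside 0 and 0.0231% of all genes. All were measured in the same libraries as the 78 genes.

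Among 18 regulators of mitochondrial transcription and biogenesis tested, 1 was called, in Smarca4+/+ CC against CB, where 7.49% of all genes were called. This gene, Yy1, a zinc finger transcription factor, had 76.8 and 105 CPM in Smarca4+/+ CC, against 158 and 193 CPM in Smarca4+/+ CB (log2 fold change -0.95 ± 0.25, SE; edgeR adjusted p = 0.0420). The medians of these regulators were -0.14 in Smarca4+/- CC against CB, -0.54 in Smarca4+/+ CC against CB, -0.05 between genotypes in CB and 0.39 between genotypes in CC, beside the medians of all genes given above.

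The subunits encoded by the mitochondrial genome stood higher in CC, and lower in Smarca4+/- CB than in Smarca4+/+ CB. Of its 13 protein genes 10 were tested, and 6 were called higher in CC than CB in each genotype (mt-Nd1, mt-Nd2, mt-Nd4, mt-Nd5, mt-Cytb and mt-Co1, beside 3.67% of all genes called in Smarca4+/- and 7.49% in Smarca4+/+), with median log2 fold changes of 2.38 in Smarca4+/- and 1.63 in Smarca4+/+. Their summed level was 51970 and 21961 CPM in Smarca4+/- CC and 51163 and 38489 CPM in Smarca4+/+ CC, against 6777 and 7636 CPM in Smarca4+/- CB and 14275 and 13162 CPM in Smarca4+/+ CB. In CB the sum was lower in Smarca4+/- without overlap, with a median log2 fold change of -0.85 and 0 of 10 called by edgeR, beside the 0.23 of the 78 nuclear genes. Mitochondrial genes have nuclear copies that can share reads, and the part of the macrophage, T cell and erythroid signal given above in these levels was not tested.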

How the data were processed

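The authors deposited raw read counts per gene for 8 libraries made from ribosomal RNA depleted RNA. Per the submitters' processing notes, FastQC, STAR, featureCounts, Subread, R 4.2.1 and the mm10 build were used; the sources used here give no aligner options and no strand setting. The authors' other unit, gene length in bases, was used only for levels per kilobase and length classes. Of 55421 identifiers, 55154 had a symbol. Counts were fitted with edgeR 4.0.16 in R 4.3.3: TMM scaling, filterByExpr (minimum count 10, minimum total 15), a mean per group over all 8 libraries, glmQLFit and glmQLFTest, two-sided, with Benjamini-Hochberg adjustment over all 12997 genes kept and a threshold of 0.05. The SE given with a log2 fold change was worked back from the test, as its absolute value divided by the square root of the F statistic. CPM are counts scaled to TMM library totals, which were 526353 to 24341805 before scaling. The script was tested on simulated counts. Alternatives were DESeq2 1.42.0, limma-voom (limma 3.58.1), other scalings and filters, thinning, a replicate term and each library left out. No per-sample column was left unused. Named genes are those with the 5 smallest p-values per comparison, core subunits, tissue isoforms and the highest and lowest gene of each complex; 1 of these genes and 1 marker are not reported here by name, and they stay in all counts and sums. The genes, lists and rules were chosen with earlier results of these data known. Figures and tables were made with Python 3.11.15 and pandas 2.3.3.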

Additional observations from a re-analysis of the deposited data

Results flagged for a closer look

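For 7 of the 78 genes both Smarca4+/- libraries were below both Smarca4+/+ libraries in CC and above them in CB, beside 2.32% of all genes tested, and the test of the difference itself, the interaction, did not pass for those given here. It was -4.77 (log2) for Ndufa1 (edgeR's quasi-likelihood test with Benjamini-Hochberg adjustment, adjusted p = 0.419) and -1.15 for Uqcrfs1 (edgeR adjusted p = 0.567). The value of Ndufa1 rests on 1 count in Smarca4+/- CC. Ndufa6, Ndufa9, Uqcr10 and Cox5a showed the same placement of libraries. The count of 7 is not separate from the comparisons within a fraction. In CB alone 50 of the 78 genes were above (beside 16.2% of all genes), and in CC alone 13 were below (beside 14.4%).

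The selection leaves out Ndufb1-ps because of its name, although the row held 2309 counts. It had 0 and 18 counts in Smarca4+/- CC, against 528 and 802 in Smarca4+/- CB, and 6 and 20 in Smarca4+/+ CC, against 419 and 516 in Smarca4+/+ CB.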

How the results depend on the processing

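The count of called genes in CC against CB depended on the tool and filter. In Smarca4+/- it was 0 (beside 3.67% of all genes), 5 with DESeq2 (beside 11.4%) and 1 with limma-voom (beside 3.01%). It was 4 with no filter on low counts (beside 5.3%) and 1 with the replicate block within genotype (beside 4.43%). Without ribosomal RNA, mitochondrial and immunoglobulin genes it was 1 (beside 3.77%). With counts halved, an alternative chosen after seeing the data, it was 2 (beside 8.15%). In Smarca4+/+ it was 0 (beside 7.49%), 5 with DESeq2 (beside 16.7%) and 2 with no filter (beside 7.66%). It was 1 there with the replicate block within genotype (beside 7.43%). DESeq2 called 2 between genotypes in CC (beside 6.51%) and 1 for the interaction (beside 2.61%). The replicate number as a block over all groups called 0 in every comparison. Correlations of same-numbered deviations were -0.035 to 0.047. With counts this low in CC, they do not settle whether the numbers pair the libraries. The ribosomal RNA locus took a larger share of counts in replicate 2 of each group. In Smarca4+/- it took 18.8% and 26.7% in CC and 17.4% and 29.5% in CB. In Smarca4+/+ it took 18.3% and 21.6% in CC and 23.0% and 31.1% in CB. The source of that difference was not tested.

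The median log2 fold change in Smarca4+/- CC against CB was -0.43 with DESeq2, -0.44 with RLE scaling, -0.45 with total count scaling, -0.45 with the stricter filter (50 counts in 2 libraries) and -0.33 with CB thinned. In Smarca4+/+ it was -0.17 with DESeq2, -0.42 with limma-voom, -0.18 with RLE, -0.11 with total counts, -0.21 with the stricter filter and -0.077 thinned. There 23 genes were lower without overlap in the main fit (beside 38.5% of all genes), 17 with total counts (beside 31.7%) and 12 of 66 thinned (beside 25.7%). The count higher was 5 in the main fit (beside 18.2%), 12 with RLE (beside 21.6%), 14 with total counts (beside 22.5%) and 11 of 66 thinned (beside 25.4%). In CB between genotypes the median was 0.30 with total counts and 0.19 thinned, and the count above without overlap was 23 of 66 thinned (beside 16.8%). The interaction median was -0.25 with limma-voom. The causes were not tested.

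Leaving out each library in turn gave 0 to 5 called genes in Smarca4+/- CC against CB (beside 6.13% of all genes at the highest) and 0 to 6 in Smarca4+/+ (beside 7.54%). The medians ranged from -0.69 to -0.51 and from -0.36 to -0.19 in these comparisons, from 0.20 to 0.26 between genotypes in CB, from -0.23 to 0.018 between genotypes in CC and from -0.48 to -0.25 for the interaction.

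RLE and total count scaling moved the median of all genes in Smarca4+/- CC against CB to 0.03 and 0.04, from -0.08, and in Smarca4+/+ to -0.07 and -0.00, from -0.19. All genes called split into 282 higher and 195 lower in Smarca4+/- (305 and 122 with RLE, 326 and 99 with total counts) and 484 and 489 in Smarca4+/+ (541 and 367, 568 and 289). CC depth limits single genes.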
